A study of Mus musculus with 21 samples.

Results

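Cytoplasmic ribosomal protein genes encode the proteins that, together with ribosomal RNA, make up the small and the large subunit of the ribosome. They were chosen by symbol: a row was a member where its symbol began with Rpl, Rps or Rplp followed by a digit, held no -ps (the mark of a named pseudogene) and was not an Rps6k kinase or an Rps19bp gene. Of 33861 genes, 90 were members. They were 30 small subunit genes, 43 large subunit genes and the 3 genes of the stalk (76 core genes in all), 8 paralogues, which encode a related protein from a second gene, and 6 rows that are copies of a core gene. Of these 6 copies, 4 are listed as processed pseudogenes in GENCODE M21, the gene annotation used here. Rpsa and Fau, which also encode ribosomal proteins, fall outside the rule and are described at the end.

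RNA was sequenced from 12 cultured mouse samples of 1000 cells each and from 9 single epiblasts, the tissue of the early embryo that gives rise to the body. Formative stem cells (FS, 6 samples) were grown in the medium A3XR and came from 2 lines. Line 1 was sampled at passage 10, 11 and 18, whereas line 2 was sampled at passage 12, 13 and 16. The other cultures, AF and AFX, have 3 samples each (passage 14, 15 and 16) and are labelled EpiSCs, which are stem cells of the epiblast type. They were grown in the media of those names and carry in their descriptions the name E14, a mouse embryonic stem cell line. Epiblasts were 3 each of embryonic days 5.0, 5.5 and 6.0, where the last is E6.0 in the titles and 6.5 in another label. Genotype, strain, sex and batch are not given in the sources used here. Passages of a line are not independent derivations, so p-values among cultured groups measure the spread between passages. In FS against AF or AFX the 2 FS lines were pooled, so the spread also holds the difference between these lines. Those comparisons set lines and media against each other together. The p-values of culture against epiblast likewise count passages of few lines as replicates.

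Ribosomal protein genes are among the most highly expressed genes of any growing cell, and their products are needed in equal numbers, since each ribosome holds most of them once. Their messenger RNAs start with a 5' terminal oligopyrimidine tract (5' TOP), a C followed by an unbroken run of pyrimidines, through which the kinase mTOR and the binding protein LARP1 adjust their translation. Spliced and reverse-transcribed copies of these messages have inserted into mammalian genomes many times, which has left a large number of processed pseudogenes that resemble the coding sequence of the parent gene. Reads from such a copy and from its parent can be told apart only at the bases where they differ.

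The promoter windows below show the tract in core genes that hold it at or near the annotated start. RefSeq promoter windows (GRCm38.p6, 250 bases before to 50 bases after each annotated start) were at hand for 56 of the 76 core genes. A C followed by at least 4 pyrimidines stood exactly at an annotated start in 13 of the 56 (23.2%), against 3.01% of all 27025 genes with a window. The same pattern began within 10 bases of a start in 34 of 56 (60.7%), against 34.4% of all genes. The 5 windows below were picked because they hold the tract, printed 5' to 3' on the gene's strand over 30 bases around the start, with the tract in capitals.
Rps6, chr4:86857348-86857377, minus strand: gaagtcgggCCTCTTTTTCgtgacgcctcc
Rps18, chr17:33955646-33955675, minus strand: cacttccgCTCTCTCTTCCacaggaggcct
Rplp2, chr7:141447641-141447670, plus strand: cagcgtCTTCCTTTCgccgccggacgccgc
Rpl35a, chr16:33056472-33056501, plus strand: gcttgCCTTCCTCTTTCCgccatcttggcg
Rpl15, chr14:18270967-18270996, minus strand: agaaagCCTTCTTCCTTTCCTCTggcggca
Of other motifs searched on both strands, CCGGAAG was found in 23 of the 56 core windows (41.1%) and in 9.93% of all windows. AAGATGGC was found in 5 (8.93%, against 3.19%) and TATAAA in 6 (10.7%, against 15.7%). A match describes the sequence and is not evidence of binding.

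Total counts per sample ran from 5827093 to 15916800, and all values per gene are CPM (counts scaled to a fixed library size) after TMM scaling (a scaling that assumes most genes are unchanged) unless the text says otherwise. Rows of ribosomal RNA or similar to it, with the mitochondrial ribosomal RNA genes among them, took 19.97 to 31.8% of counts. The mitochondrial share was 4.26 to 5.78% in cultured samples and 6.31 to 8.95% in epiblasts. It counts the mitochondrial ribosomal RNA genes again, so the shares overlap and cannot be added. The pluripotency gene Pou5f1 was 304 to 487 CPM in cultured samples and 554 to 719 CPM in epiblasts. Dnmt3b (549 to 1958 against 2682 to 5727 CPM) and Utf1 were also lower in every cultured sample than in any epiblast. Sox2 (22.4 to 100.1 against 27.8 to 73.1 CPM), Otx2 and Fgf5 overlapped. The sum of these epiblast markers was 1174 to 3073 CPM (unscaled) in culture and 3357 to 6042 CPM in epiblasts. Summed markers of visceral endoderm, the layer that surrounds the epiblast, were 264 to 788 CPM (unscaled) at E5.0, against 20.9 to 32.4 at E6.0. Summed feeder fibroblast markers were 227 to 269 CPM (unscaled) in AF, 30.3 to 55.6 in AFX and 16.5 to 49.3 in FS. Among the AF samples passage 15 stood apart: it had the highest core share (2.99%, against 2.69% and 2.58%) and the lowest level of the nucleolar gene Ncl (2152 CPM, against 4048 and 3913).

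The core genes took a larger share of the counts in epiblasts than in culture. The share was 2.81% ± 0.0905 (SD, n = 6) in FS, 2.75% ± 0.213 (SD, n = 3) in AF and 2.84% ± 0.258 (SD, n = 3) in AFX. It was 3.17% ± 0.170 (SD, n = 3) at E5.0, 3.596% ± 0.154 (SD, n = 3) at E5.5 and 3.30% ± 0.0190 (SD, n = 3) at E6.0. The highest cultured sample, at 3.13% in AFX, lay above the lowest epiblast, at 3.01% at E5.0, so the 2 kinds of sample overlapped on this scale. With ribosomal RNA-like and mitochondrial rows left out of the total they did not: the highest cultured sample was at 4.22% and the lowest epiblast at 4.30%. The large subunit genes held 1.61 to 1.83 times the counts of the small subunit genes in every sample. In bulk samples, fewer cells that express a gene and less of its RNA per cell cannot be told apart.

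**Figure D1:**
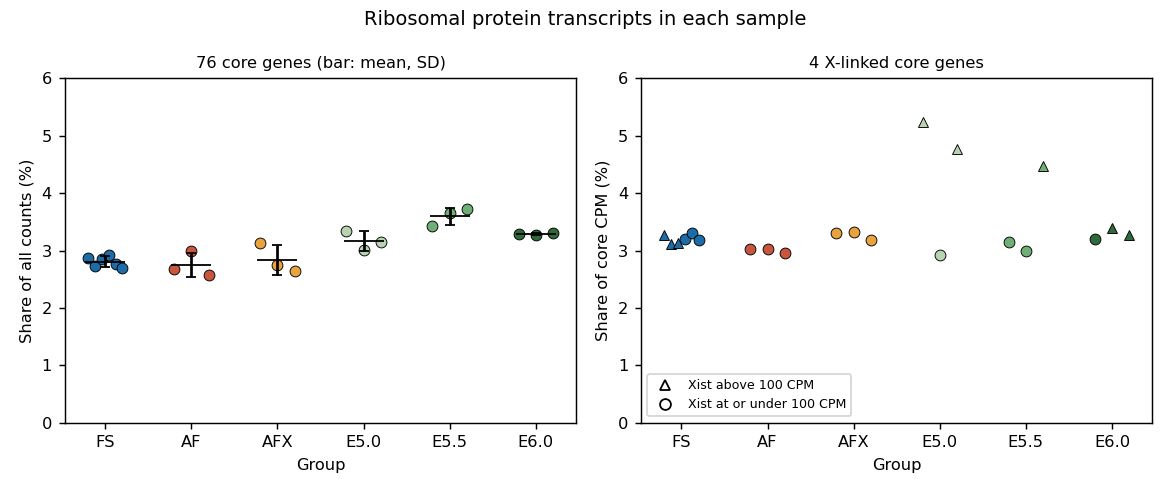
Left, summed share of all counts (%) of the 76 core genes in each sample by group, with mean and SD bars; right, the part (%) of the summed core CPM that came from the 4 X-linked core genes, with triangles for samples above 100 CPM of Xist. The E5.5 epiblasts have the highest core share, at 3.596% on average, and 3 epiblasts of E5.0 and E5.5 stand apart on the right at 4.48 to 5.25%.

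Core genes were not equally abundant. Per kilobase of exon, averaged over the 6 group means, the stalk gene Rplp1 was highest at 1998 CPM, followed by Rpl8 at 909. Rpl24 was lowest at 1.07 CPM per kilobase, between 0 and 3.64 CPM in every sample, while the other 75 core genes averaged 49.6 CPM or more. The annotation assigns 47.0% of the exon bases of Rpl24 also to the gene Gm28037 on the same strand, which is not analysed here. The value of Rpl24 is therefore uncertain.

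Cultured cells were compared with epiblasts as the mean of the 3 cultured groups against the mean of the 3 stages, in 1 fit of all 21 samples. Of the 76 core genes, 69 were lower and 1 was higher in culture (edgeR's quasi-likelihood test, Benjamini-Hochberg adjusted p under 0.05 over 16614 genes), where 27.9% of all genes tested were lower and 33.9% higher, 61.8% in all. The lower genes were 27 of 30 small subunit genes, 39 of 43 large subunit genes and all 3 stalk genes. The median log2 fold change of the core genes was -0.52, against 0.09 for all genes tested. For 39 core genes every cultured sample lay below every epiblast, which held for 5.8% of all genes, while 5.39% of all genes had every cultured sample above every epiblast. Cultured samples were 1000 cells and epiblasts single tissues, and this difference in sampling cannot be told apart from the difference between culture and embryo.

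Among the separated genes with the largest decreases were Rps14, of the small subunit, and Rpl10, a large subunit protein that joins late in assembly. Rps14 was 132 to 193 CPM in FS, 164 to 206 in AF, 150.2 to 203 in AFX and 274 to 354 in the epiblasts, so the lowest epiblast lay above the highest cultured sample. Rps14 averaged 174 CPM in culture and 312 CPM in epiblasts, with a log2 fold change of -0.84 ± 0.0716 (SE, edgeR adjusted p = 1.35e-09). Rpl10 averaged 93.4 CPM in culture and 171 CPM in epiblasts, a log2 fold change of -0.86 ± 0.127 (SE, edgeR adjusted p = 6.61e-06).

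Rplp0, the stalk protein to which the other 2 attach, was 1261 to 1515 CPM in FS, 567 to 598 in AF, 556 to 628 in AFX, and 1490 to 2190 in epiblasts. FS overlapped with the lowest epiblast and the other 2 cultured groups lay at 628 CPM or less. With the reads of its near-identical pseudogenes added, Rplp0 was 1164 to 1537 CPM in culture and 1503 to 2212 CPM in epiblasts, and its log2 fold change between culture and epiblast went from -1.23 to -0.55. Of its partners in the stalk, Rplp1 averaged 886 CPM in culture and 1108 CPM in epiblasts (log2 fold change -0.32), and Rplp2 699 and 996 CPM (-0.51), both of which passed the test. Rpl5 and Rpl11 bind the 5S ribosomal RNA and, when free, the p53 regulator MDM2. Rpl11 fell from 341 CPM in epiblasts to 195 CPM in culture, a log2 fold change of -0.80 ± 0.0586 (SE), and its samples did not overlap. Rpl5 changed less, from 1391 to 1174 CPM (-0.24 ± 0.0584), with overlapping samples. Rps6, the target of S6 kinase, was 337 to 431 CPM in culture and 450.0 to 535 CPM in epiblasts, without overlap, and Rps27a, which is made as a fusion with ubiquitin, averaged 454 and 566 CPM.

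Only Rps18 among the core genes was called higher in culture, by a log2 fold change of 0.39 ± 0.0722 (SE), and its samples overlapped: FS lay at 120 to 169 CPM, below the epiblasts at 175 to 230 CPM, and AF and AFX at 333 to 448 CPM above them. Rps2, Rps20, Rpl24, Rpl26, Rpl29 and Rpl37 did not pass the test. How many core genes were called depended on the scaling. With libraries scaled to their total counts, 55 were lower and 3 higher, the core median was -0.30 and the median of all genes was 0.30, and the calls over all genes moved from 5632 higher and 4633 lower to 7290 higher and 2990 lower. The core median lay below that of all genes under both scalings, by 0.60 on the log2 scale with TMM.

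**Figure D2:**
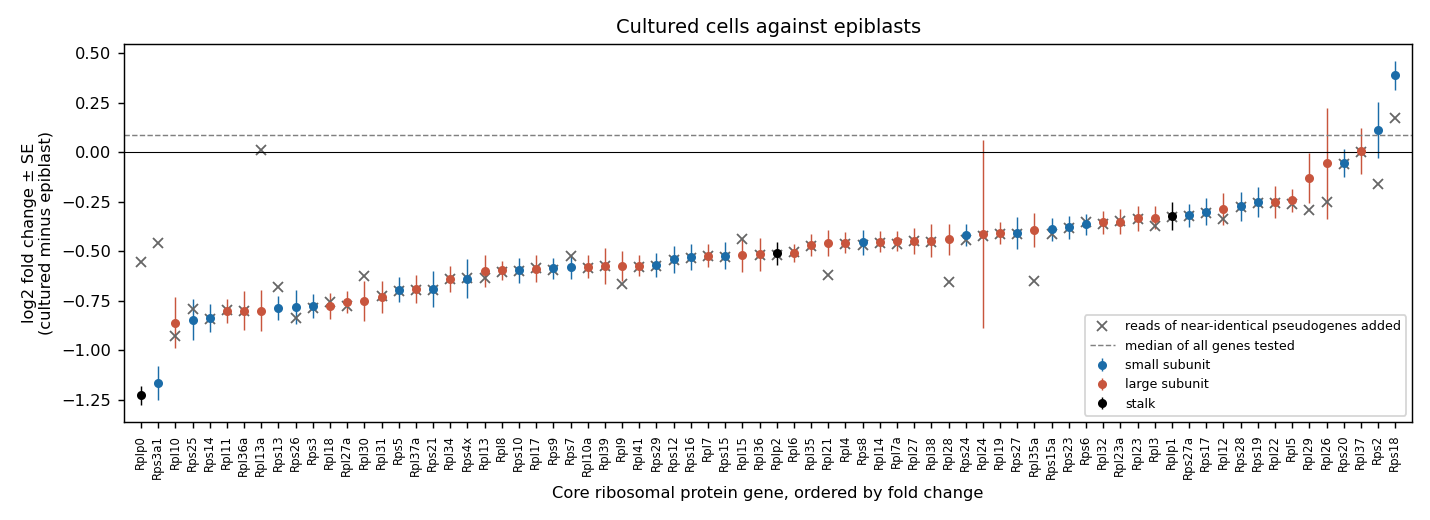
Log2 fold change (cultured minus epiblast) with its SE for 74 of the 76 core genes, in order of size, with the value after reads of near-identical pseudogenes were added (crosses) and the median of all genes (dashed). Nearly all points lie under the dashed line at 0.09, and the crosses of Rplp0 and Rps3a1 lie nearer to 0 than their points.

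The 4 core genes on the X chromosome, Rps4x, Rpl10, Rpl36a and Rpl39, were all called lower in culture, and they also differed between single epiblasts of E5.0 and E5.5. Rps4x was 782, 433 and 733 CPM in E5.0 embryos 1, 2 and 4, 544, 536 and 847 CPM in E5.5 embryos 1 to 3, and 494, 597 and 608 CPM in E6.0 embryos 1 to 3. Rpl36a was 603, 321 and 535 CPM at E5.0, 341, 372 and 548 CPM at E5.5, and 337, 362 and 362 CPM at E6.0, in the same order of embryos. In both genes E5.0 embryos 1 and 4 and E5.5 embryo 3 were high, and the other 6 epiblasts were lower.

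Together the 4 genes made up 5.25%, 4.77% and 4.48% of the core CPM in these 3 embryos, 2.93 to 3.39% in the other 6 epiblasts and 2.96 to 3.32% in cultured samples. Xist, the RNA that coats the inactive X chromosome of female cells, was 856, 649 and 714 CPM in the same 3 embryos, with 0.240 to 0.467 CPM summed over 4 genes of the Y chromosome. Xist was also high in E6.0 embryos 2 and 3, at 969 and 855 CPM, where the X-linked share was 3.39% and 3.27%, and in FS line 1, at 272 to 722 CPM, where it was 3.12 to 3.27%. The remaining samples had 126 to 227 CPM of the Y-linked genes, and Xist at 58.4 CPM in E5.0 embryo 2 and 17.99 CPM or less elsewhere. The X-linked share was therefore raised in the Xist-positive epiblasts of E5.0 and E5.5 and not in those of E6.0. This pattern was chosen after its values were seen, each embryo is 1 sample, and the difference between stages was not tested. Over the whole chromosome, the median log2 fold change of all 519 X-linked genes tested was -0.32 from E5.0 to E5.5 and -0.26 from E5.0 to E6.0, where the autosomal medians lay between -0.05 and 0.07 and between -0.12 and 0.10. The part of embryo sex in the stage comparisons that follow was not tested.

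Within the embryo, most core transcripts were highest at E5.5: the mean was highest at that stage for 54 of 76 core genes, at E5.0 for 11 and at E6.0 for 11. Of the 14228 genes tested in epiblasts, 26.2% had their highest mean at E5.5. Few single genes passed the test. From E5.0 to E5.5, 4 core genes passed, all of them higher (edgeR, over 14228 genes, where 3.07% were higher and 3.75% lower, 6.82% in all), with a core median of 0.13 against -0.01 for all genes. From E5.5 to E6.0, 3 passed, all lower (1.89% of all genes were higher and 2.54% lower, 4.43% in all), with a core median of -0.13 against -0.02. From E5.0 to E6.0, 2 were higher and 3 lower (background 10.2% and 11.6%, 21.8% in all), with medians of 0.01 and -0.02. Fits of only the 2 groups compared called 2, 9 and 3 core genes in these 3 steps, and DESeq2 called 5 from E5.5 to E6.0. These 3 comparisons share their epiblasts and are not independent of each other.

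Rplp0 was 1490, 1642 and 1588 CPM at E5.0, 2059, 2190 and 2109 CPM at E5.5, and 1832, 1775 and 1929 CPM at E6.0. The 3 stages did not overlap, and the log2 fold change was 0.42 ± 0.0699 (SE, edgeR adjusted p = 0.00389) from E5.0 to E5.5. With the reads of its near-identical pseudogenes added, which are described with the cultured cells, Rplp0 was 1503 to 1657, 2077 to 2204 and 1844 to 2212 CPM at the 3 stages. E5.5 and E6.0 then overlapped, and the change from E5.0 to E5.5 was 0.42 ± 0.0779 (edgeR adjusted p = 0.00660). Rpl8, which lies near the catalytic centre of the large subunit, was 1298 to 1381 CPM at E5.0, 1674 to 1725 CPM at E5.5 and 1355 to 1442 CPM at E6.0. It rose by 0.33 ± 0.0662 and fell by 0.28 ± 0.0662 on the log2 scale (SE, edgeR adjusted p = 0.0102 and 0.0270). Rpl35, at the exit of the peptide tunnel, rose from 510 CPM at E5.0 to 647 CPM at E5.5, a call lost in 5 of the 6 fits that left out 1 embryo. Other genes overlap 66.2% of its exon bases on the opposite strand, and whether strand was used in counting is not given in the sources used here. Rpl3 was the 4th gene called higher at E5.5 (0.28 ± 0.0752), and Rpl35a was called lower at E6.0 than at E5.5 (-0.56 ± 0.119), but with pseudogene reads added it did not pass (-0.33 ± 0.0975, edgeR adjusted p = 0.0738).

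Rpl35a was 154 to 178 CPM at E5.0, 141 to 178 CPM at E5.5 and 101 to 121 CPM at E6.0, so that both younger stages lay above the oldest. Its log2 fold change from E5.0 to E6.0 was -0.58 ± 0.119 (SE, edgeR adjusted p = 0.00355), and Rpl30 (-0.45 ± 0.125) and Rpl9 (-0.40 ± 0.125) were also lower. With pseudogene reads added, Rpl35a still passed (-0.30 ± 0.0977), while Rpl30 (-0.21 ± 0.0909) and Rpl9 (-0.11 ± 0.0962) did not and Rpl6 was gained. In the 6 fits from E5.0 to E6.0 that left out 1 embryo, Rpl35a passed in each, while Rpl9 lost its call in 6, Rplp0 in 5, and Rpl30 and Rpl35 in 4 each. From E5.0 to E5.5, 2 core genes were called without E5.0 embryo 1 or without any 1 of the E5.5 embryos. From E5.5 to E6.0, edgeR called 0 without E5.5 embryo 2 or 3 or any 1 of the E6.0 embryos, and Rpl8 did not pass in any of the 6 fits (edgeR adjusted p = 0.0745 to 0.159). From E5.0 to E6.0, 2 were called without E5.0 embryo 1 or 4 or E6.0 embryo 2, 1 without E6.0 embryo 3, and 6 without E5.0 embryo 2 or E6.0 embryo 1. The summed visceral endoderm markers fell over the same stages, from 585 CPM ± 282 (SD, n = 3) at E5.0 to 56.6 ± 19.6 at E5.5 and 26.1 ± 5.80 at E6.0, and their part in these values was not tested.

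FS cells differed from AF and AFX cells in a few core genes and by large amounts. Against AF, 4 core genes were higher and 9 lower in FS (edgeR, over 16052 genes, where 8.86% were higher and 10.6% lower, 19.5% in all), and 9 were called in all without AF passage 15. With FS line 1 alone 8 were called, and with line 2 alone 21. Against AFX, 3 were higher and 10 lower (background 3.78% and 4.92%, 8.7% in all), and the 13 calls became 7 without AFX passage 14 and 8 without AFX passage 15. The core medians were -0.06 against AF and -0.11 against AFX, with all genes at 0.02 and 0.00. Both comparisons use the same FS samples. The genes with the largest changes were Rplp0 and Rps3a1, higher in FS, and Rps18, Rpl26 and Rps2, lower in FS.

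Rplp0 was 1261 to 1515 CPM in FS against 556 to 628 CPM in the 6 AF and AFX samples, a log2 fold change of 1.26 ± 0.0922 against AF (SE, edgeR adjusted p = 5.02e-07) and 1.22 ± 0.0920 against AFX. Rps3a1, at the small subunit's mRNA exit, was 226 to 277 CPM in FS, 96.5 to 117 CPM in AF and 91.2 to 111 CPM in AFX, with log2 fold changes of 1.21 ± 0.104 and 1.31 ± 0.104. Neither gene's FS samples overlapped with the others. Each of the 2 has a processed pseudogene that showed the opposite pattern. Gm8730, on chromosome 8, was 6.28 to 17.7 CPM in FS, 600.2 to 706 CPM in AF and 547 to 582 CPM in AFX. Rps3a3, a member that GENCODE lists as a processed pseudogene on chromosome 13, was 15.5 to 21.3 CPM in FS, 156 to 204 CPM in AF and 158 to 165 CPM in AFX.

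Aligned stretches of 60 coding bases show some of the bases that separate a parent from its copy. For each pair the ungapped stretch with the most differences was taken, so the stretches hold more differences than the pairs do on average. They come from GENCODE M21 transcripts, are printed 5' to 3', and carry capitals where the 2 sequences differ. Over the aligned coding sequence Rplp0 (chr5:115559467-115563727, plus strand) and Gm8730 (chr8:102864845-102865798, minus strand) were identical at 98.7% of 951 bases. For Rps3a1 (chr3:86137940-86142702, minus strand) and Rps3a3 (chr13:108670603-108671397, plus strand) the identity was 99.0% over 791 bases. Coding bases 388 to 447 of Rplp0 and 201 to 260 of Rps3a1 read as follows.
Rplp0: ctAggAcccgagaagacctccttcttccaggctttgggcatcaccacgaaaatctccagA
Gm8730: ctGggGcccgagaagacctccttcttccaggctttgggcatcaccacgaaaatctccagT
Rps3a1: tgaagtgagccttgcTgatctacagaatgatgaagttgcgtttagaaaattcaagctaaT
Rps3a3: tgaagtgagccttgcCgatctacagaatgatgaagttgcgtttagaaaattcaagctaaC

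Rpl26 and Rps18 had copies that were read in FS and close to absent in AF and AFX. Rpl26 (chr11:68901583-68906989, plus strand) was 511 to 578 CPM in FS line 1, 269 to 297 CPM in FS line 2, 703 to 1032 CPM in AF and 744 to 923 CPM in AFX. Its copy Gm15772 (chr5:3236431-3236868, plus strand), identical at 99.5% of 435 coding bases, was 186.5 to 194 CPM in FS line 1, 409 to 473 CPM in line 2 and 3.44 to 7.66 CPM in AF and AFX. Rps18 (chr17:33951999-33956001, minus strand) was 120 to 169 CPM in FS and 333 to 448 CPM in AF and AFX, and its copy Gm11361 (chr13:61710587-61711371, minus strand; 94.9% identity over 435 bases) was 25.5 to 37.9 CPM in FS and 1.08 CPM or less in AF and AFX. Coding bases 118 to 177 of Rpl26 and 225 to 284 of Rps18, chosen in the same way, are shown with those of their copies.
Rpl26: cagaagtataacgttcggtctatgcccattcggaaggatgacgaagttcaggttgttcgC
Gm15772: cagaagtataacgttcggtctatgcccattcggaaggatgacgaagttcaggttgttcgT
Rps18: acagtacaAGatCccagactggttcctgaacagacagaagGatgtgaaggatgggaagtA
Gm11361: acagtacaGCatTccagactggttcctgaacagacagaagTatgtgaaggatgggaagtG

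When the reads of each core gene and of its near-identical pseudogenes were summed (783 pseudogene rows matched to 72 of the 76 core genes) and all genes were fitted again, most of these differences became smaller. Rplp0 with its copies was 1270 to 1537 CPM in FS, 1223 to 1327 CPM in AF and 1164 to 1271 CPM in AFX. The log2 fold change of the sum was 0.11 ± 0.0865 against AF (edgeR adjusted p = 0.437) and 0.19 ± 0.0868 against AFX (0.216). Rps3a1 with its copies turned from higher to -0.19 ± 0.0892 against AF and -0.05 ± 0.0896 against AFX, neither of which passed. Rpl26 with its copies was -0.26 ± 0.114 and -0.19 ± 0.115, and Rps2 with its 53 copies was -0.18 ± 0.149 and -0.20 ± 0.149, all short of the threshold.

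Rps18 stayed different after summing. With its copies it was 150 to 210 CPM in FS, 335 to 448 CPM in AF and 349 to 451 CPM in AFX, with log2 fold changes of -1.17 ± 0.124 (edgeR adjusted p = 2.26e-05) and -1.18 ± 0.124 (3.48e-05). For Rpl13a, summing brought out a difference. Alone it was 33.4, 35.7 and 38.6 CPM on average in FS, AF and AFX and did not pass. Its copy Gm11478 was 1.37 to 5.20 CPM in FS and 40.9 to 62.4 CPM in AF and AFX, and the sum was lower in FS by -1.37 ± 0.126 against AF and -1.27 ± 0.126 against AFX.

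In all, summing left 7 of the 76 core genes called between FS and AF (19.4% of all genes), 6 of which had also been called without it, and 8 between FS and AFX (8.54%), 6 of them shared. Between culture and epiblast 71 were called with summing (62.1% of all genes) and 70 without, 69 of them in both; Rpl13a was lost, at 0.01 ± 0.0997 in place of -0.80 ± 0.102. There the log2 fold change of Rplp0 became -0.55 ± 0.0493 and that of Rps3a1 -0.46 ± 0.0534, both still past the threshold. How reads that match a parent and a copy were assigned is not given in the sources used here, and the cause of the opposite patterns was not tested. The FS and AF groups also differ in the summed feeder markers given above, and the part of feeder cells was not tested either.

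**Figure D3:**
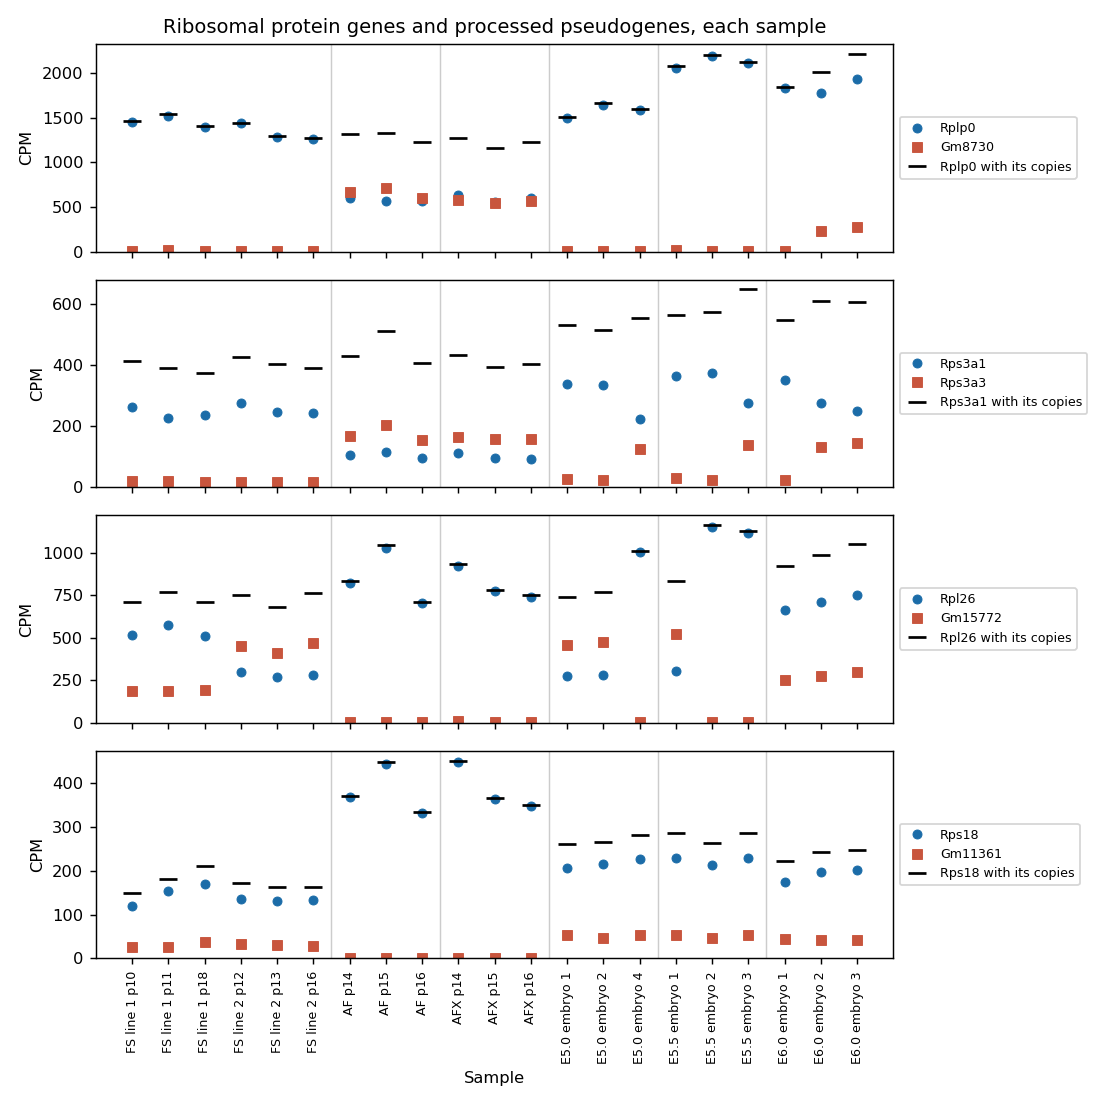
CPM in each of the 21 samples for 4 core genes (circles), 1 processed pseudogene of each (squares) and the sum of the gene with all its matched copies (bars). In AF and AFX, Rplp0 lies at 556 to 628 CPM and Gm8730 at 547 to 706 CPM, while the sum of Rplp0 with its copies lies between 1164 and 1537 CPM in every cultured sample.

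The same parents and copies also differed between single epiblasts of 1 stage. Gm15772 was 456 and 479 CPM in E5.0 embryos 1 and 2 and 2.40 CPM in embryo 4. At E5.5 it was 525 CPM in embryo 1, 5.51 in embryo 2 and 4.20 in embryo 3, and at E6.0 it was 252.5, 274 and 298 CPM. Rpl26 was the mirror of this, at 278, 284 and 1006 CPM at E5.0, 306, 1155 and 1120 CPM at E5.5 and 667, 711 and 752 CPM at E6.0. The epiblasts thus fell at 3 levels of the copy: near 0 in 3 embryos, at 252.5 to 298 CPM in 3, and at 456 to 525 CPM in 3. FS line 1 (186.5 to 194 CPM) lay below the middle level, and FS line 2 (409 to 473 CPM) overlapped with the high one.

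Rps3a3 was 27.2, 24.2 and 127 CPM in E5.0 embryos 1, 2 and 4, 30.4, 24.1 and 139.6 CPM at E5.5, and 23.5, 132 and 144 CPM at E6.0. Rps3a1 was lowest in the same embryos in which Rps3a3 was above 100 CPM, at 225 CPM in E5.0 embryo 4, 275 CPM in E5.5 embryo 3, and 276 and 249 CPM in E6.0 embryos 2 and 3, against 336 to 375 CPM in the other 5. Gm8730 was above 200 CPM only in E6.0 embryos 2 and 3 (227 and 280 CPM) among the epiblasts, and 8.53 to 14.8 CPM in the rest. These values were looked at after the differences among cultured cells had been seen, and no test was made.

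AFX and AF cells, which carry the same E14 name and differ in medium, differed in 1 core gene. Rpl8 was 814, 892 and 802 CPM in AF at passages 14, 15 and 16 and 1424, 1247 and 1283 CPM in AFX. All AFX samples lay above all AF samples and above FS (721 to 897 CPM), and the log2 fold change was 0.65 ± 0.0986 (SE, edgeR adjusted p = 0.00137). Of all genes 4.3% were higher and 4.42% lower, 8.73% in all. Without AFX passage 14, 2 core genes were called. Rpl8 lies on chromosome 15, and so do Rpl30, Rpl37 and Rpl3, which had log2 fold changes of 0.60, 0.41 and 0.20 without passing the test. Rpl30 was 100.2 to 119 CPM in AF and 163 to 172 CPM in AFX, and Rpl37 373 to 473 and 539.7 to 621 CPM, in both without overlap.

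The shift was not particular to ribosomal protein genes. The median log2 fold change of all 561 genes tested on chromosome 15 was 0.52, while the medians of the other chromosomes lay between -0.07 and 0.06, and 195 of the 691 genes higher in AFX (28.2%) were on chromosome 15. Among genes of translation and ribosome assembly, those called higher in AFX were Pabpc1 (0.82), Eef1d (0.69), Eif3e (0.54), Eif3l (0.52), Hnrnpa1 (0.42) and Brix1 (0.77), all on chromosome 15, and Nap1l1 (0.43) on chromosome 10. In FS against AFX the chromosome 15 median was -0.57, and against AF it was -0.04. The chromosome medians were computed after these genes had been noticed. The copy number of the chromosome was not measured, and its part in the result was not tested. AFX also had fewer feeder marker reads than AF (Col1a1 at 6.73 to 19.9 against 88.7 to 108 CPM, unscaled). Of the 7 markers in the list, 6 lay lower in every AFX sample than in any AF sample, while Thy1 was higher (5.58 to 15.1 against 0.836 to 4.23 CPM after TMM scaling). Their part was not tested.

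**Figure D4:**
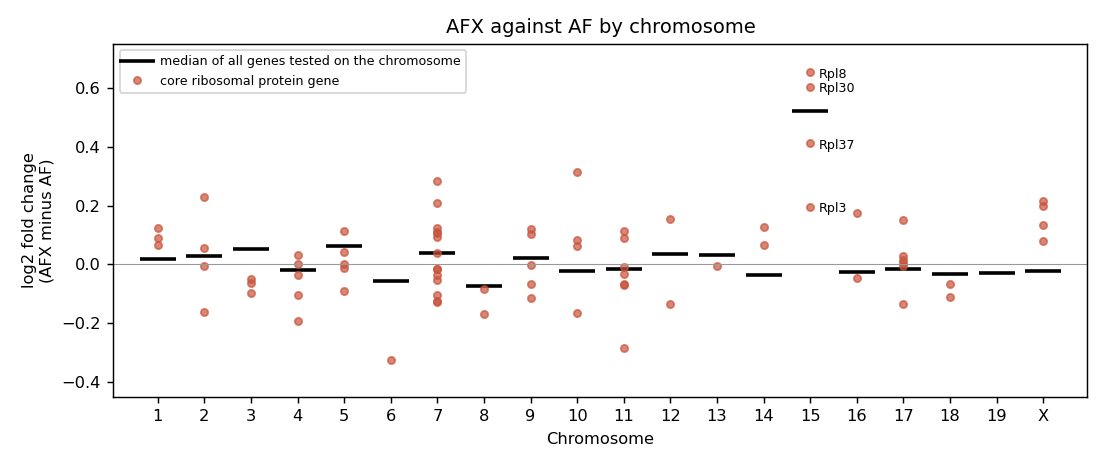
Log2 fold change (AFX minus AF) of each core gene (points) by chromosome, with the median of all genes tested on the chromosome (bars). Chromosome 15, which carries Rpl8, Rpl30, Rpl37 and Rpl3, has a median of 0.52, and all other medians lie between -0.07 and 0.06.

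The 2 FS lines differed in 6 core genes, 3 higher and 3 lower in line 2 (2.65% and 1.2% of all genes, 3.85% in all). Rps25, which takes part in initiation at viral internal entry sites, was 68.7 to 78.4 CPM in line 1 and 111 to 131 CPM in line 2, a log2 fold change of 0.68 ± 0.110 (SE, edgeR adjusted p = 0.00207). Rpl30 (0.60 ± 0.121) and Rpl38 (0.42 ± 0.109) were also higher in line 2, with no overlap between lines. Rpl26 (-0.94 ± 0.132), Rpl29 (-0.75 ± 0.184) and Rpl35a (-0.55 ± 0.0985) were lower. With copies summed, Rps25 remained called (0.41 ± 0.108), Rps19 was added (-0.66 ± 0.120), and the other 5 did not pass. Rpl38 kept its size (0.41 ± 0.110, edgeR adjusted p = 0.0523) and Rpl30 was at 0.38 ± 0.114 (edgeR adjusted p = 0.0878). Rpl29 was at -0.36 ± 0.119, Rpl35a at -0.18 ± 0.0999 and Rpl26 at -0.02 ± 0.133. Without line 2 passage 13, 3 of the 76 core genes were called. In the 6 fits that left out 1 FS sample, Rpl38 lost its call in 6, Rpl29 in 4 and Rpl30 in 1. Rpl29 depended on 1 sample of line 1: it was 109.5 CPM at passage 11 and 63.7 and 63.9 CPM at passages 10 and 18, and without passage 11 its log2 fold change was -0.42 (edgeR adjusted p = 0.150). Between the lines the median log2 fold change of all genes tested was 0.24 on chromosome 11, which holds Rpl38 and Rpl26, and -0.23 on chromosome 17, while the other chromosomes lay between -0.08 and 0.02. DESeq2 called 12 core genes between the lines. The lines also differ in Xist and in the Y-linked genes, and the part of these differences was not tested.

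Paralogues encode variants of a ribosomal protein, often made in one tissue, such as the testis or muscle. Of the 8, 3 were read mainly in epiblasts. Rps4l, a retrogene related to Rps4x that GENCODE lists as a transcribed processed pseudogene, was 196 to 197 CPM at E5.0, 166 to 205 CPM at E5.5 and 92.7 to 143 CPM at E6.0. In culture it was 6.78 to 12.6 CPM in AF, 0.0994 to 0.570 CPM in FS and 0.125 to 0.672 CPM in AFX. Epiblasts were far above every cultured sample (log2 fold change -7.21 ± 0.166, SE, edgeR adjusted p = 1.52e-19). AF was above both other cultured groups, with a log2 fold change of -4.66 ± 0.423 for FS against AF and -4.57 ± 0.550 for AFX against AF, while FS and AFX did not differ past the threshold (-0.09 ± 0.544).

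Rpl10l, a retrogene of Rpl10 known for its role in male germ cells, was 38.3 to 60.8 CPM at E5.0, 13.8 to 17.6 CPM at E5.5 and 2.60 to 3.55 CPM at E6.0. The 3 stages did not overlap, and it fell by 1.69 ± 0.223 and then by 2.41 ± 0.248 on the log2 scale (SE, edgeR adjusted p = 0.00117 and 6.58e-05). In culture it was 0.465 CPM or less in every sample. Rpl39l, a paralogue of Rpl39 also known from testis, was 6.47 to 8.65 CPM at E5.0, 1.36 to 6.20 CPM at E5.5 and 0.520 to 1.84 CPM at E6.0, and was lower at E6.0 than at E5.0 by a log2 fold change of -2.75 ± 0.634 (SE, edgeR adjusted p = 0.00724). All 12 cultured samples had a count of 0.

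**Figure D5:**
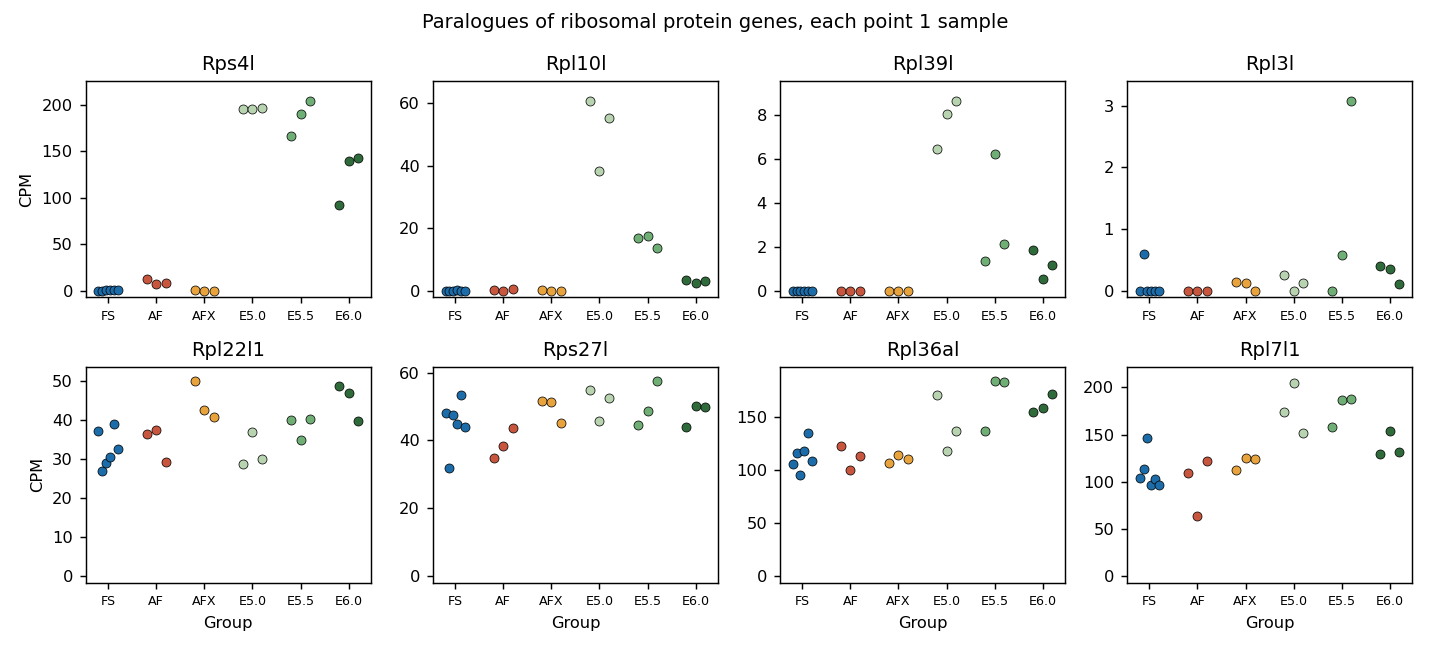
CPM of the 8 paralogues in each sample by group, each panel with its own linear axis. Rps4l, Rpl10l and Rpl39l are higher in every epiblast than in FS and AFX, where they are near 0. Rpl10l falls from 38.3 to 60.8 CPM at E5.0 to 2.60 to 3.55 CPM at E6.0, and Rpl39l is at 1.84 CPM or less at E6.0.

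Of the other 5 paralogues, 3 were called in 1 comparison each. Rpl7l1, the paralogue of Rpl7 that acts in ribosome assembly, averaged 110 CPM in culture and 164 CPM in epiblasts (log2 fold change -0.58 ± 0.101), and Rpl36al 112 and 157 CPM (-0.49 ± 0.0781), both called with overlapping samples. Rpl22l1 was 27.1 to 39.1 CPM in FS and 41.0 to 50.1 CPM in AFX, without overlap, and its log2 fold change was -0.46 ± 0.135 (edgeR adjusted p = 0.0472), a call lost in 7 of the 9 fits that left out 1 sample. Rps27l, a p53 target, was 31.9 to 57.5 CPM across all samples and passed in no comparison. Rpl3l, the form of Rpl3 found in muscle, was at 3.08 CPM or less in every sample and was not tested. Of the copies, Rps3a2 and Rpl6l were lower in culture (-0.35 ± 0.0750 and -0.54 ± 0.0701), and the remaining 4 were not called between culture and epiblast.

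Genes whose products work with these proteins were read from lists fixed with results of these data known. Rpsa, a protein of the small subunit, and Fau, whose product is cleaved to a small subunit protein, were both lower in culture, with log2 fold changes of -0.49 ± 0.0566 and -0.43 ± 0.0892. Of 21 translation factors and other genes with 5' TOP messages, 17 were lower in culture, with a median of -0.29, where 27.9% of all genes were lower, 33.9% higher and 61.8% called in all. They include Pabpc4, a poly(A)-binding protein (-0.81 ± 0.0648), and Eif3k, a subunit of an initiation factor (-0.58 ± 0.0749). Of 45 genes of ribosome assembly tested, 38 were lower, with a median of -0.59. Examples are Nhp2, a small nucleolar RNA protein (-1.15 ± 0.0997), and Polr1b, a subunit of RNA polymerase I (-1.004 ± 0.119). Of 78 mitochondrial ribosomal protein genes tested, 56 were lower and 3 higher, with a median of -0.43.

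Of 21 regulators of ribosome production and its checkpoint, 11 were lower and 2 higher in culture, where 27.9% of all genes were lower and 33.9% higher. Myc and Mycn, which drive transcription of ribosome genes, were lower, with log2 fold changes of -1.32 ± 0.213 and -1.14 ± 0.122. Myc averaged 26.9 CPM in culture and 62.1 CPM in epiblasts, and in FS it was 6.61 to 23.1 CPM. The p53 targets Cdkn1a (2.26 ± 0.210) and Mdm2 (0.55 ± 0.105) were higher in culture. From E5.5 to E6.0, 1 of the 21 translation genes and 2 of the 45 assembly genes were higher, where 1.89% of all genes were. Eef1a1, the elongation factor that brings transfer RNA to the ribosome, rose from 2949 CPM at E5.5 to 4245 CPM at E6.0 (0.52 ± 0.0791), and Ncl, a nucleolar protein, from 3996 to 5541 CPM (0.47 ± 0.0923). Over the same step Rpsa fell from 1647 to 1219 CPM (-0.44 ± 0.0835). Between FS and AF, 1 of the 45 assembly genes was higher in FS and 3 were lower, smaller shares than the 8.86% and 10.6% of all genes. Wdr43, a gene of small subunit assembly, was higher in FS at 443 against 241 CPM (0.87 ± 0.154, and 0.70 without AF passage 15), and Polr1d was lower at 39.8 against 68.3 CPM (-0.79 ± 0.101). The cause of these differences was not tested.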

How the data were processed

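RNA-seq of 21 mouse samples was read from 1 deposited table of raw counts per gene, with 33861 rows. Per the submitters' processing notes the tools were Trim Galore, TopHat2 2.1.0 and featureCounts 1.5.0, with build mm10. The annotation, the strand setting and the treatment of reads that map to several places are not given in the sources used here. Counts were fitted with edgeR 4.0.16 (TMM, filterByExpr, robust quasi-likelihood) in R 4.3.3, with Benjamini-Hochberg adjustment over all genes tested. There were 4 fits: the cultured samples, the same with FS split by line, the epiblasts, and all 21. The SE is the log2 fold change divided by the square root of F. The members and lists were chosen with earlier results of these data known. Named genes were all paralogues, up to 3 genes per direction and comparison with the largest change, at least 10 CPM and no overlap, members with a fixed role, and up to 2 genes per list and direction; other genes given with values were chosen after these were seen. The 76 core genes leave out Rps3a2, Rps3a3, Rps12l1 and Rpl6l, which an earlier wording of the core held; they were set apart after the files were read. Pseudogene families were GENCODE M21 pseudogene transcripts aligned with blastn 2.17.0 (at least 90% identity, 150 bases and 50% of the pseudogene), an alternative added after seeing the data, as were the 3 ribosomal RNA-like rows, the chromosome medians and the X-linked share. Other alternatives used DESeq2 1.42.0, other scalings and filters, and each sample left out. For some of the comparisons the fit was also run on simulated counts with known changes, and the outcome is not reported here. No 2 replicates agreed within sampling noise (chi-square per degree of freedom 5.19 to 32.2 over 21 pairs). Floors of 3 counts cover counting error only. Promoter sequences are from RefSeq. Results of some genes are not reported here.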

Additional observations from a re-analysis of the deposited data

Results flagged for a closer look

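In FS, the only group examined (the groups of 3 were not), 115 gene values were examined for a sample standing apart by Dixon's test at its 95% critical value, which by chance marks about 1 in 20. The test marked 11, and 8 of them were the passage 11 sample of line 1. That sample was highest for Rpl37 (535 CPM, median 293.5), Rpl12 (465 CPM, median 341), Rpl29 (109.5 CPM, median 56.6), Eif3k (104 CPM, median 78.4) and Rpl3l (0.591 CPM, median 0). It was lowest for Rpl31 (149.5 CPM, median 247), Rps16 (191 CPM, median 249) and Rps27 (84.0 CPM, median 111). The passage 18 sample of line 1 was highest for Rpl7l1 (146 CPM, median 103) and Rps28 (209 CPM, median 166). The passage 12 sample of line 2 was highest for Rpl10l, at 0.161 CPM (2 counts) where the other 5 were at 0. With the other samples at 0, as also for Rpl3l, the test marks any value above 0, so these 2 marks carry no information. The cause was not tested.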

How the results depend on the processing

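Between FS and AF, 13 core genes were called with both FS lines, 8 in a fit with line 1 alone and 21 in a fit with line 2 alone. With pseudogene reads added the counts were 7 for FS against AF, 8 for FS against AFX, 2 for AFX against AF and 2 for the FS lines, and Rps3a1 turned to -0.19 and -0.052. In the stage comparisons they were 5 from E5.0 to E5.5 (7.01% of all genes), 2 from E5.5 to E6.0 (4.56%) and 4 from E5.0 to E6.0 (22.2%). DESeq2 called 2 for AFX against AF, 12 for the FS lines and 5 from E5.5 to E6.0. Fits of only the 2 groups gave 2 for AFX against AF, 2 from E5.0 to E5.5, 9 from E5.5 to E6.0 and 3 from E5.0 to E6.0. Correlations of same-numbered AF and AFX samples were -0.137, -0.104 and 0.223, within the range for different numbers (-0.296 to 0.332). With so few samples this cannot decide whether the numbers pair them. With a replicate block the counts were 2 for AFX against AF, 0 from E5.0 to E5.5, 12 from E5.5 to E6.0 and 2 from E5.0 to E6.0. Scaling to the ribosomal protein counts themselves, which is circular for these genes, gave 35 calls and a median of -0.040 for culture against epiblast, 2 calls and -0.030 from E5.0 to E5.5, and 1 call and -0.026 from E5.5 to E6.0. It reversed Rplp1 (0.16), Rps27a (0.16), Rps6 (0.11), Rpl38 (0.030), Rpl5 (0.24), Rpl35a (0.085) and Rpl35 (0.011) between culture and epiblast, where total-count scaling gave a median of -0.30. Shares without ribosomal RNA-like and mitochondrial rows were 3.64% in FS, 3.79% in AF, 3.802% in AFX, 4.46% at E5.0, 5.00% at E5.5 and 4.48% at E6.0, and with -ps rows 2.98% in FS, 3.35% at E5.0, 3.81% at E5.5 and 3.48% at E6.0. Leaving out 1 sample at a time gave 9 to 16 calls (median -0.11 to 0.01) for FS against AF, 7 to 14 (-0.14 to -0.04) for FS against AFX, 1 to 2 (-0.05 to 0.07) for AFX against AF, 3 to 5 (-0.09 to 0.02) for the FS lines, 2 to 4 (0.11 to 0.15) from E5.0 to E5.5, 0 to 2 (-0.15 to -0.06) from E5.5 to E6.0, 1 to 6 (0.01 to 0.06) from E5.0 to E6.0 and 70 to 71 (-0.54 to -0.50) for culture against epiblast. Shares then ranged over 2.78 to 2.83% in FS, 2.63 to 2.84% in AF, 2.69 to 2.94% in AFX, 3.08 to 3.25% at E5.0, 3.54 to 3.68% at E5.5 and 3.29 to 3.31% at E6.0. With the 4 copies kept among the core genes, 14 were called between FS and AF and 72 between culture and epiblast. Of the alternatives for single named genes 2231 kept direction and call, 252 kept direction only and 9 reversed. Causes not given here were not tested. Passages of few lines, 3 embryos a stage and rows that share sequence limit these values.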
